A study of Mus musculus with 2 samples.

Results

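The Rab GTPases were described in 2 RNA libraries of mouse pancreatic islets. The members were all genes whose symbol was Rab, a number and at most 1 letter, which held for 59 of the 17245 genes with values. Islets are the clusters of hormone-secreting cells of the pancreas, mostly β-cells, which make insulin. The labels name a wild type (WT) and a knockout (KO), which the design text describes as a β-cell knockout of the DNA sensor cGAS, with 1 library each. No other allele is named, and the age and strain of the mice, the promoter that drove recombination and the number of mice behind a library are not given in any source used. Islets of both genotypes were isolated with collagenase, picked by hand and kept in culture medium with serum, with no treatment named. With 1 library per genotype no difference has a replicate check and no p-value was computed, so every comparison is between these libraries and not between the genotypes.

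Values were FPKM, that is reads scaled by gene length and by library total, and the totals behind them came out as 14537660 reads for KO and 19097001 for WT. Cgas itself was at 0.521 FPKM in KO and 0.205 FPKM in WT, on 31 and 16 reads, and so was higher in the first (ratio 2.55, exact 95% counting interval 1.35 to 4.98). A gene total does not show which exons were read, so the genotype labels could not be checked from it. Below, the name library labelled KO stands for the first, and each direction rests on the labels of both libraries, WT included. Islet hormones were abundant in both, with glucagon (Gcg) at 26588 and 27070 FPKM. The 2 insulin genes went opposite ways, Ins1 at 237131 and 113793 FPKM and Ins2 at 182558 and 250577 FPKM. Markers of several other cell types differed between the libraries. All 25 acinar markers above the floor of 1 FPKM in either library were at least 2-fold below WT in the library labelled KO, their summed level was 205 against 2797 FPKM, and the acinar regulator Ptf1a was listed at 0 there and at 0.382 FPKM in WT. Of 15 expressed endothelial markers 7 were called at least 2-fold higher (summed level 865 against 377 FPKM). Of 15 macrophage and dendritic markers 8 were (825 against 372 FPKM), and of 13 fibroblast, stellate and pericyte markers 3 (245 against 129 FPKM). Of 8 ductal markers 1 was, with near equal sums (278 against 273 FPKM). All expressed genes gave 6.98% higher and 3.88% lower. With the trend on GC content and transcript length described below removed, 5 endothelial, 1 macrophage and dendritic, and 4 fibroblast, stellate and pericyte markers were that much higher. The share of all genes was then 3.23%. Of 15 β-cell markers 6 were at least 2-fold lower and 1, Ins1, higher. In RNA of whole islets, fewer cells of a type and less RNA per cell cannot be told apart.

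Rab proteins are small GTPases that give membranes their identity. Exchange factors load them with GTP on a given compartment, where they recruit effectors (tethers, motors and fusion factors), and GTPase-activating proteins switch them off. A lipid tail added at the C-terminus holds them on the membrane, and GDP dissociation inhibitors take the inactive form back to the cytosol. In β-cells, Rab3 and Rab27 proteins sit on insulin granules and act in their docking and release, while the others serve the route from the endoplasmic reticulum (ER) through the Golgi and the endosomal system.

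Most of the family was expressed. Of the 59 genes, 53 reached 1 FPKM in either library, the floor used here for an expressed gene, and 29 reached 10 FPKM in both. Summed over the family the level was 1069 FPKM in the library labelled KO against 1326 FPKM in WT, which was 0.142% and 0.194% of the FPKM of all listed genes. The 10 genes of highest mean level held 53.5% and 52.0% of the family sum. Among expressed members the order of levels was much alike in both libraries, with Spearman's rho of 0.91 across 53 genes, which are not independent replicates. The plot of levels by role shows each member in both libraries.

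**Figure D1:**
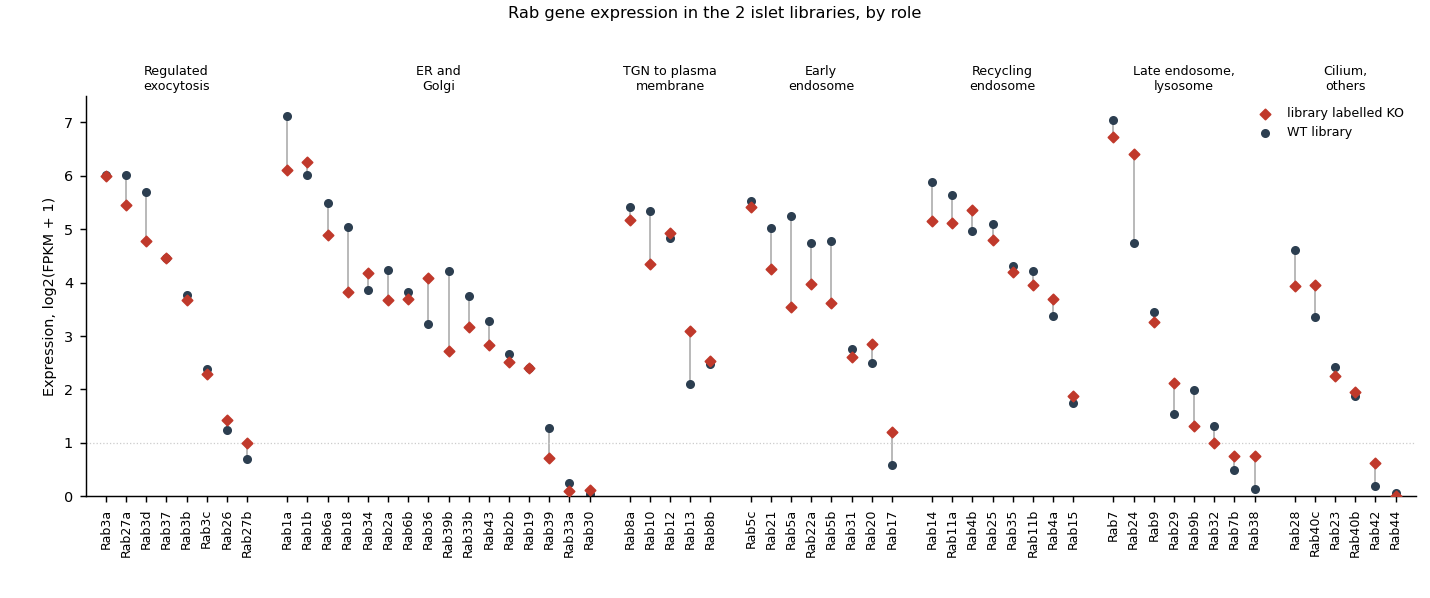
Expression of the 59 Rab genes as log2(FPKM + 1) on the vertical axis, grouped by role on the horizontal axis, with diamonds for the library labelled KO and circles for the WT library; the dotted line marks 1 FPKM. Rab1a and Rab7 stand highest in WT at 139 and 132 FPKM, Rab24 stands far higher in the library labelled KO (83.7 against 25.8 FPKM), and Rab5a, Rab39b and Rab18 stand far lower.

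Rab7, which directs late endosomes to lysosomes, was the most abundant member by mean level, at 104 FPKM against 132 FPKM in WT. Rab1a and Rab1b, which act between the ER and the Golgi, followed at 67.8 against 139 FPKM and 75.5 against 63.4 FPKM. Rab3a, the granule Rab also known from synaptic vesicles, was at 62.4 and 63.8 FPKM. Rab24, a Rab linked to autophagy, ranked second in the library labelled KO and twentieth in WT. The next were Rab27a, Rab14, Rab5c, Rab11a and Rab3d, with WT levels from 45.0 to 63.8 FPKM. The order of levels rests on the gene lengths the authors used. For Rab2a, an ER and Golgi Rab, the smallest whole reads that give both values were 2612 and 5210 at a length of 15329 nucleotides, against 2133 nucleotides for its longest coding GENCODE transcript. By those smallest reads Rab2a ranked 2 in WT, while by FPKM (17.8) it ranked 25. True reads can be a larger whole multiple, unlike between genes, so the first is not a rank of true reads.

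The 6 genes under the floor were Rab7b, Rab30, Rab33a, Rab38, Rab42 and Rab44. Rab38, which acts on melanosomes and other lysosome-related organelles, was at 0.698 against 0.0996 FPKM on at least 16 and 3 reads, a ratio of 7.01 with an exact 95% interval of 2.005 to 37.5. Rab42 was at 0.544 against 0.145 FPKM (ratio 3.75, 1.52 to 10.5). Rab44 was listed at 0 in the library labelled KO and had 3 reads in WT. Intervals here and throughout cover counting error only, since each genotype has 1 library. PCR copies were not marked by molecular identifiers, so even for counting error an interval can be too narrow.

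Between the libraries more Rab genes were lower than higher in the one labelled KO. Differences were taken as log2((KO + 1)/(WT + 1)) and called at 2-fold on that scale, which understates the change of low genes. Of the 53 expressed members 6 were called lower, Rab5a, Rab39b, Rab18, Rab5b, Rab1a and Rab10, which is 11.3% against 3.88% of all 12428 expressed genes. The 1 member called higher was Rab24, 1.89% against 6.98% of all expressed genes. The median difference was -0.16 for Rab genes, with 34 below 0 and 19 above, and 0.077 for all expressed genes. Counting intervals of the ratio lay wholly below 1 for 25 members, wholly above 1 for 10 and held 1 for 18. The same count was not made over all expressed genes, so it does not set the family apart from them. At a limit of 1.5-fold, 14 Rab genes were lower and 6 higher, where all expressed genes gave 13.5% lower and 21.4% higher. With a pseudocount of 0.1 FPKM in place of 1 FPKM, 7 were lower and 3 higher, against 5.76% and 12.5% of all genes, and with 5 FPKM, 3 were lower and 1 higher, against 1.46% and 2.45%. Across all expressed genes the share of calls that were higher was 64.3%, 46.5% with each library scaled to the same sum and 44.3% with equal sums without the 20 highest genes; under these scalings Rab3d also passed the limit, at -1.07, and 7 Rab genes were lower and 1 higher, against 6.38% of all genes lower and 5.54% higher with the same sum and 5.83% and 4.63% without the 20 highest.

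**Figure D2:**
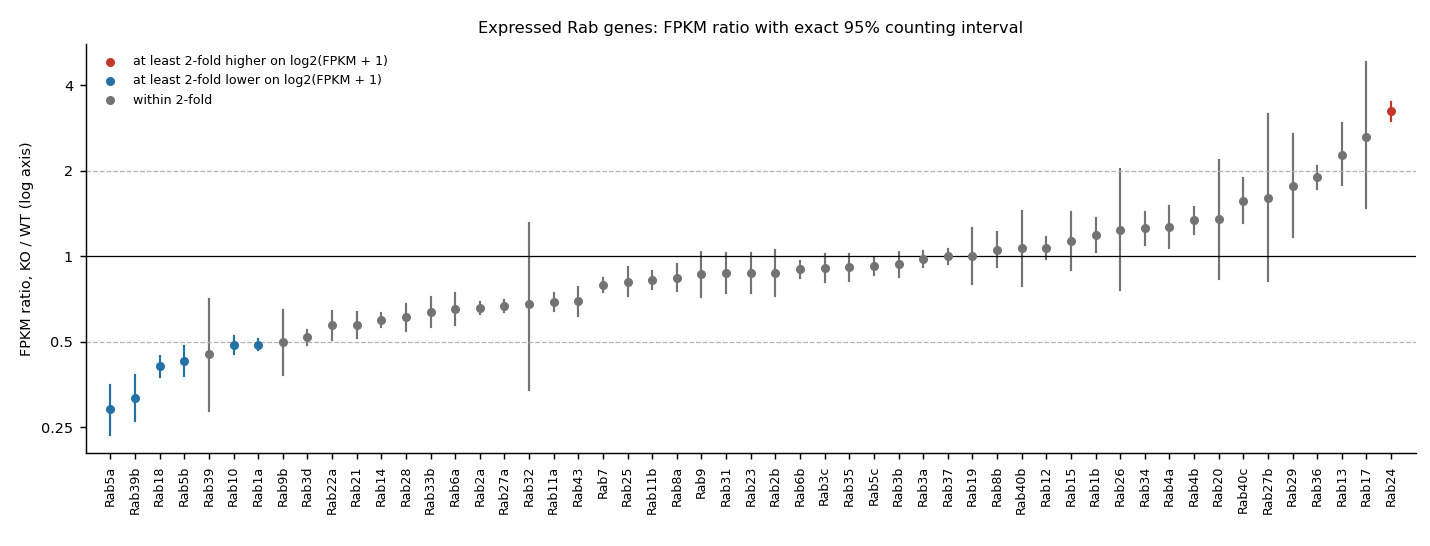
Ratio of FPKM in the library labelled KO to FPKM in WT on a log axis for the 53 expressed Rab genes, ordered by ratio on the horizontal axis; points are ratios and bars exact 95% counting intervals, with dashed lines at 2-fold. Rab5a lies lowest at 0.289 and Rab24 highest at 3.25, and the wide bars belong to genes with few reads such as Rab17, Rab27b and Rab32.

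On the FPKM values as listed, the Rabs of regulated exocytosis were mostly close to WT, apart from Rab3d and Rab27a. None of the 8 passed 2-fold, and their median was -0.059. Rab3a had a ratio of 0.979 (0.915 to 1.05). Rab3b was at 11.8 against 12.6 FPKM, a ratio of 0.937 (0.845 to 1.04), and Rab3c at 3.86 against 4.24 FPKM (0.910, 0.812 to 1.02). Rab37, described on secretory granules, was at 21.1 FPKM in both libraries (ratio 1.00, 0.943 to 1.06). For these 4 genes the counting interval held a ratio of 1. Rab3d, known from secretory granules of acinar and other cells, was at 26.4 against 51.0 FPKM, 1.93-fold lower (1.82 to 2.05), with a difference of -0.92. Rab27a, which tethers insulin granules through the effectors Sytl4 and Exph5, was at 42.6 against 63.8 FPKM, 1.499-fold lower (1.43 to 1.57), with a difference of -0.57.

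Rab27b and Rab26, both also known from acinar zymogen granules, were low in both libraries. Rab27b was at 1.01 against 0.626 FPKM (ratio 1.61, 0.822 to 3.18) and Rab26 at 1.68 against 1.35 FPKM (1.24, 0.760 to 2.03), and both intervals held a ratio of 1. The acinar markers had a median difference of -3.46, wider than that of Rab3d, and their part in the Rab3d value was not tested. With a trend on GC content and transcript length removed, Rab3d stood at -1.05, past the limit, Rab27a at -0.43, Rab3a at -0.51 and Rab37 at -0.24. Rab26 then lay at -0.40 and Rab3b at -0.036, while Rab3c and Rab27b lay above 0, at 0.39 and 0.82. The group median was then -0.32, against -0.29 for the expressed Rab genes. In WT, Rab3a and Rab27a were level at 63.8 FPKM, with Rab3d next, while in the library labelled KO Rab3a stood above Rab27a.

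ER and Golgi Rabs were lower in the library labelled KO more often than higher. Of the 16 genes 14 were expressed, 3 were called lower and none higher, 10 lay below 0, and the median was -0.51. Over all expressed genes 3.88% were called lower and 6.98% higher, with a median of 0.077. With the trend on GC content and length removed, 1 of the 14 was at least 2-fold lower, Rab39b (-1.17). Rab1a was then at -0.76 and Rab18 at -0.73, and the group median was -0.35. Rab1a, required for transport from the ER to the Golgi, was 2.05-fold lower (1.96 to 2.14), on at least 2808 against 7552 reads. Rab18, found on the ER and on lipid droplets, was at 13.1 against 32.0 FPKM, 2.44-fold lower (2.24 to 2.66). Rab39b, a Golgi-associated Rab, was at 5.62 against 17.7 FPKM, 3.14-fold lower (2.61 to 3.81). Rab6a, which acts in traffic within and out of the Golgi, had a difference of -0.60, Rab33b, a Golgi and autophagy Rab, -0.59, Rab2a -0.56 and Rab43 -0.46. Rab36 was at 15.9 against 8.40 FPKM, a ratio of 1.90 (1.73 to 2.085) and a difference of 0.85, short of the limit. Rab34 was at 0.31 and Rab1b at 0.25. Rab6b, Rab2b and Rab19 lay at -0.14, -0.16 and 0.006, and Rab39 was at 0.648 against 1.43 FPKM.

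Among the 5 Rabs that carry cargo from the trans-Golgi network to the plasma membrane, Rab10 was lower and the others were within 2-fold. Rab10, which acts in polarised secretion and in the delivery of glucose transporters, was at 19.3 against 39.6 FPKM, 2.06-fold lower (1.91 to 2.21), with a difference of -1.002 at the limit. Rab13, a Rab of epithelial and endothelial junctions, was at 7.53 against 3.30 FPKM, a ratio of 2.28 (1.78 to 2.94), and its difference of 0.99 was just short of the limit. Endothelial markers had a median of 0.95 between the same libraries, and their part in the Rab13 value was not tested. Rab8a was at -0.24, Rab8b at 0.062 and Rab12 at 0.095.

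Early endosomal Rabs held the widest decrease of the family. Rab5a, which drives fusion of early endosomes, was at 10.7 against 37.1 FPKM, 3.46-fold lower (2.84 to 4.24), and Rab5b was at 11.3 against 26.4 FPKM, 2.33-fold lower (2.07 to 2.63). Rab5c, the third isoform, was at 41.6 against 45.0 FPKM, a ratio of 0.924 (0.859 to 0.993). Rab21, which is linked to integrin traffic, and Rab22a, an endosomal Rab, both had ratios of 0.573 and differences of -0.77 and -0.76. Rab31 was at -0.16 and Rab20 at 0.36, both with intervals that held a ratio of 1. Rab17, an epithelial Rab, was at 1.30 against 0.497 FPKM, a ratio of 2.63 (1.48 to 4.82). Over the 8 genes, 2 were called lower and none higher, and the median was -0.46. All expressed genes gave 3.88% lower and 6.98% higher, with a median of 0.077.

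None of the 8 recycling Rabs passed 2-fold, and the median was -0.19. Rab14, which acts between the Golgi and endosomes, was 1.68-fold lower (1.58 to 1.78) and Rab11a, the main Rab of recycling endosomes, 1.45-fold lower (1.35 to 1.56). Rab25, an epithelial relative of Rab11, was at -0.29, Rab11b at -0.26 and Rab35 at -0.12. Rab4a and Rab4b, which serve fast recycling, lay above WT, at 0.32 and 0.41, with ratios of 1.27 (1.07 to 1.51) and 1.34 (1.202 to 1.49). Rab15 was at 0.13. With the trend on GC content and length removed, Rab4a, Rab4b and Rab15 lay below WT, at -0.13, -0.36 and -0.16, and Rab25 was at -0.95.

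Late endosomal, lysosomal and autophagy Rabs did not move together. Rab24 was 3.25-fold higher (3.01 to 3.51), on at least 2312 and 935 reads, with a difference of 1.66, while Rab7 had a ratio of 0.793 (0.750 to 0.839) and a difference of -0.33. Rab29, a Rab that recruits the kinase Lrrk2, was at 3.36 against 1.89 FPKM (ratio 1.77, 1.17 to 2.69). Rab9 was at -0.19, Rab9b at -0.67 and Rab32 at -0.31. Of the 6 expressed members 1 was called higher and none lower, where all expressed genes gave 6.98% higher and 3.88% lower. Among the remaining genes none of 4 expressed members passed the limit: Rab28 was at -0.68, Rab40c at 0.60, Rab23 at -0.15 and Rab40b at 0.068.

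Because a ratio between genes of 1 library does not depend on how the libraries were scaled, close relatives were also compared by their shares of the family's FPKM. The trend on GC content and length was not removed from these shares. With it removed, the differences were -0.76 for Rab1a and -0.33 for Rab1b, and -1.49 for Rab5a and -0.50 for Rab5c. In the Rab1 pair Rab1a made up 47.3% in the library labelled KO and 68.7% in WT, so that Rab1b was the larger in the first and Rab1a in the second. In the Rab5 family Rab5c made up 65.4% against 41.5%, and Rab5a 16.9% against 34.2%. In the Rab3 family Rab3a made up 59.7% against 48.5% and Rab3d 25.3% against 38.7%. The composition moved less in the other families plotted: Rab11a held 44.7% against 49.0% of the Rab11 family with Rab25, Rab6a 70.7% against 76.9% of the Rab6 pair, Rab4b 77.2% against 76.3%, Rab8a 88.0% against 90.1% and Rab27a 97.7% against 99.03%. Family sums were 143 against 202 FPKM for Rab1, 63.7 against 109 FPKM for Rab5 and 105 against 132 FPKM for Rab3.

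**Figure D3:**
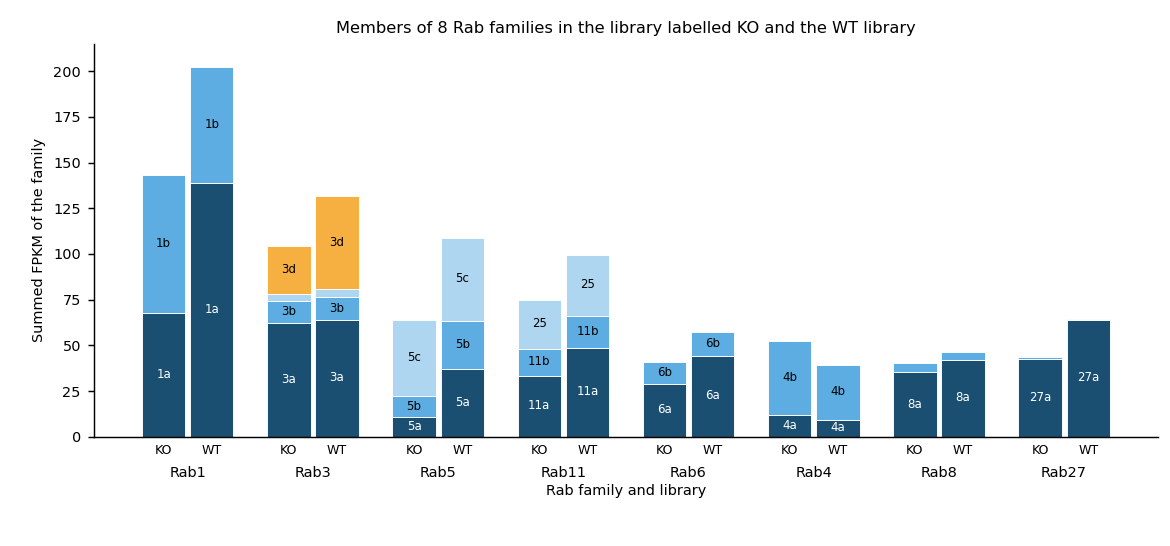
Summed FPKM of 8 Rab families in the library labelled KO and the WT library, with each stacked segment 1 gene. The Rab5 bar falls from 109 to 63.7 FPKM with Rab5c nearly the same height in both, and Rab1b takes more of the Rab1 bar in the library labelled KO (52.7% against 31.3%).

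The promoters of the genes with the widest difference in each direction, and of the relatives within the Rab5 and Rab1 families whose differences were unlike, are shown to set their sequences beside the values. These are the 250 bases before the RefSeq start on GRCm38.p6, read 5′ to 3′ on the gene's strand, and capitals mark matches to 5 motifs searched on both strands: TTGCNNAA (C/EBP, the family of the factor named in the study's title), TGACGTCA (CRE, bound by CREB and ATF factors), TCACGTGA (CLEAR, bound by TFEB), CCAAT and TATAAA. The matches marked here do not overlap one another.
Rab24, chr13:55321981-55322230, minus strand: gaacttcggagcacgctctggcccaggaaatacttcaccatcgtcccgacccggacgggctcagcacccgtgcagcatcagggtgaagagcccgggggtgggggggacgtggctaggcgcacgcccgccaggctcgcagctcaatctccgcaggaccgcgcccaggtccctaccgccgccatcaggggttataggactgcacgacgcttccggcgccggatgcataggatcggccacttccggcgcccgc
Rab5a, chr17:53478984-53479233, plus strand: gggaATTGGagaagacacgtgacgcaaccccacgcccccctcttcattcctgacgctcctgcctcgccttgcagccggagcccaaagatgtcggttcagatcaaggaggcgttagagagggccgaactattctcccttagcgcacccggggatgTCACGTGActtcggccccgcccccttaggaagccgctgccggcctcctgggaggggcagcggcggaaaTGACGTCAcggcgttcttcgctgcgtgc
Rab5c, chr11:100738216-100738465, minus strand: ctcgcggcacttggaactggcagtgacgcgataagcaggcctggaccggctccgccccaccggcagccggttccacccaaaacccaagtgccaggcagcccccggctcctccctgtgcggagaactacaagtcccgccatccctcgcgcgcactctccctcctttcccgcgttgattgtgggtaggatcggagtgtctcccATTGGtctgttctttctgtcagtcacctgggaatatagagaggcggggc
Rab1a, chr11:20201162-20201411, plus strand: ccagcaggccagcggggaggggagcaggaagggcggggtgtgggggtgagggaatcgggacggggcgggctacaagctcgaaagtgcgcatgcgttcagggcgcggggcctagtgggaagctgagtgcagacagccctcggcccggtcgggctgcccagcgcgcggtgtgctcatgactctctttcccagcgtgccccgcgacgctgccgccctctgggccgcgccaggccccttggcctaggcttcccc
Rab1b, chr19:5106997-5107246, minus strand: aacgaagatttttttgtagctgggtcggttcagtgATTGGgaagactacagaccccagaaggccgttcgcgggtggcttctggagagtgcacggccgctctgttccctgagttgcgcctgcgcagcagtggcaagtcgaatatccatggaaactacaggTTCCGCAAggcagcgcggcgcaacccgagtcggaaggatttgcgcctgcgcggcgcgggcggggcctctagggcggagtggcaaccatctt

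All 5 were rich in G and C, with 68.8% for Rab24, 64.0% for Rab5a, 63.2% for Rab5c, 72.4% for Rab1a and 60.8% for Rab1b, and held 27, 23, 18, 23 and 23 CG dinucleotides. The median over 60 windows of 48 Rab genes was 60.2%, against 52.4% over 32851 windows of all genes. Rab5a held 1 CRE, 1 CLEAR and 1 CCAAT match, Rab5c 1 CCAAT match, Rab1b 1 C/EBP and 1 CCAAT match, and Rab24 and Rab1a none of the 5 motifs. The C/EBP motif was in 4 of the 60 Rab windows (6.67%), those of Rab1b, Rab29, Rab40b and Rab43, and in 9.56% of all windows. The CRE was in 2 (3.33%, Rab25 and Rab5a) against 1.55% of all, the CLEAR motif in 2 (3.33%, Rab21 and Rab5a) against 0.785%, CCAAT in 24 (40.0%) against 33.8% and TATAAA in 4 (6.67%) against 12.4%. A match is a stretch of letters and not a measured site.

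The differences of Rab genes went with the base composition of their transcripts, as they did for other genes. Across the 53 expressed members the difference rose with GC content of the longest coding transcript, with r of 0.61 and rho of 0.64, and fell with log2 length, with r of -0.44 and rho of -0.48. Across 12206 expressed genes with a gene model the same values were 0.40 and 0.42 for GC content and -0.36 and -0.39 for length. All points share the same 2 libraries. Among genes of lowest GC content (up to 47.3%, the lower of 3 equal classes), 21 Rab genes had a median of -0.59 and 5 were called lower (Rab10, Rab18, Rab1a, Rab39b and Rab5a), while all 4069 genes of that class had a median of -0.24 and 7.08% were called lower. In the class of highest GC content (over 53.7%), 16 Rab genes had a median of 0.28 and included Rab24, against 0.40 for all genes, of which 13.3% were called higher. Unlike pairs also differed in GC content: Rab1a had 42.0% and Rab1b 58.9%, Rab5a 42.3% and Rab5c 54.7%, while Rab5b had 49.1% and Rab3d 53.2%.

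**Figure D4:**
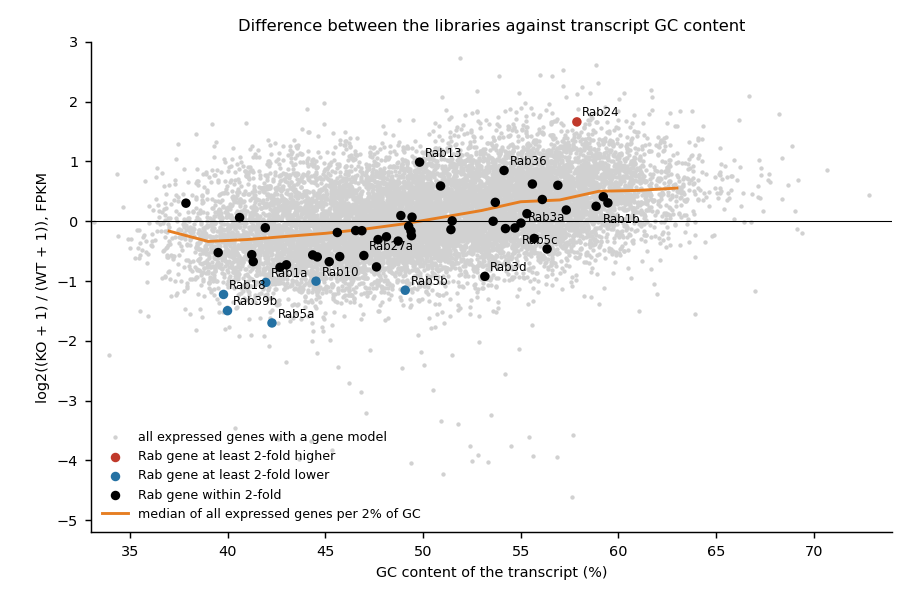
Difference between the libraries, log2((KO + 1)/(WT + 1)) of FPKM, against the GC content of the transcript in percent, for 12206 expressed genes (grey) and the 53 expressed Rab genes (black, or coloured when past 2-fold); the line is the median of all expressed genes in steps of 2% of GC. The line climbs from left to right, Rab5a, Rab39b and Rab18 lie below it on the left, and Rab24 lies above it on the right.

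With lowess trends removed, first on GC content and second on log2 length, 4 Rab genes were at least 2-fold lower, Rab5a (-1.49), Rab39b (-1.17), Rab5b (-1.10) and Rab3d (-1.05), against 2.90% of all genes. None was at least 2-fold higher, against 3.23%. Rab24 was then at 0.93, Rab1a at -0.76, Rab10 at -0.75 and Rab18 at -0.73, short of the limit, and Rab5c at -0.50. The sign of 13 of the 53 genes changed, all with values within 0.40 of 0 once the trend was removed. Those that went from above 0 to below were 10, namely Rab1b (-0.33), Rab34 (-0.33), Rab4a, Rab4b, Rab15, Rab19, Rab20, Rab26, Rab37 and Rab40b. Those that went from below 0 to above were Rab3c (0.39), Rab23 (0.080) and Rab11b (0.008). Rab13 stood at 0.75 and Rab36 at 0.63, and Rab27b, which has few reads, at 0.82. The median of the 53 Rab genes was -0.29, against -0.013 for all genes.

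Exons of 20 of the 59 Rab genes overlap another annotated gene in GENCODE M21, and how the authors counted such reads is not given. Rab24 (chromosome 13, 55319223 to 55321980) overlaps Prelid1 on the opposite strand, a gene at 62.5 against 54.0 FPKM. Rab5a (chromosome 17, 53479234 to 53507678) overlaps Pp2d1, at 0.0833 and 0.0423 FPKM. Rab10, Rab18 and Rab39b overlap non-coding genes that have no row of their own in the table. Rab5b and Rab1a overlap no other exon. Rab27a overlaps a processed pseudogene, and Rab4b, Rab43 and Rab26 share exons with a coding gene on the same strand, so their values are less certain.

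Few of the genes that load, switch and read Rabs passed 2-fold. Over 5 fixed lists of regulators and effectors 135 of 143 genes were expressed, 4 were called higher and 4 lower (2.96% each, against 6.98% higher and 3.88% lower of all expressed genes), and the median was -0.092, against 0.077 for all. Among 8 genes of prenylation, escort and extraction none passed 2-fold; the widest were Chm, the escort protein, at -0.97 (2.80 against 6.41 FPKM) and Rabggta, a subunit of the geranylgeranyl transferase, at 0.81 (17.3 against 9.44 FPKM). The GDP dissociation inhibitor Gdi2, named after its values were seen, was at 84.4 against 90.5 FPKM.

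Of 37 expressed exchange factor genes 3 were called higher and 1 lower, with a median of -0.037. All expressed genes gave 6.98% higher and 3.88% lower, with a median of 0.077, so these counts do not set the list apart. Dennd4c, an exchange factor for Rab10, was at 5.02 against 23.1 FPKM, 4.61-fold lower (4.22 to 5.05), the widest difference in these lists. Rab10 itself was 2.06-fold lower, and a link to Dennd4c was not tested. Those called higher included Dennd6b at 14.1 against 4.61 FPKM (3.06-fold, 2.73 to 3.44) and Hps4, part of the exchange factor for Rab32 and Rab38, at 14.6 against 5.51 FPKM (2.64-fold, 2.35 to 2.97). With the GC content and length trend removed, Dennd4c was at -1.56, Dennd6b at 1.24 and Hps4 at 0.96. Madd, the exchange factor for Rab3 and Rab27 (named after its values were seen), was at 25.1 against 49.2 FPKM, 1.96-fold lower (1.87 to 2.06).

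Of 36 expressed GTPase-activating proteins 1 was called lower, Tbc1d8b (3.18 against 8.51 FPKM, 2.67-fold, 2.21 to 3.26), and none higher, with a median of -0.14. The shares over all expressed genes were 3.88% lower and 6.98% higher. Tbc1d15, which acts on Rab7, was at -0.88. With the GC content and length trend removed, Tbc1d8b was at -0.76 and Tbc1d15 at -0.53, and none of the list passed 2-fold. Rab3gap1, a subunit of the activating protein for Rab3 that also serves as exchange factor for Rab18 (named after its values were seen), was at 13.4 against 25.2 FPKM, 1.89-fold lower (1.74 to 2.04).

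Of 15 expressed effectors of Rab3 and Rab27, Exph5, a Rab27 effector of granule exocytosis, was called lower (1.80 against 5.10 FPKM, 2.83-fold, 2.38 to 3.37) and none higher, with a median of -0.12. Among all expressed genes 3.88% were called lower and 6.98% higher, with a median of 0.077. Unc13d, a Rab27 effector known from blood cells, was at 1.44 against 0.376 FPKM, a difference of 0.82. With the GC content and length trend removed, Exph5 was at -0.83 and Unc13d at 0.44, and none of the list passed 2-fold. The granuphilin gene Sytl4 and the Rab3 and Rab27 effector Rph3al, both named after their values were seen, were at 35.1 against 56.8 FPKM (1.62-fold lower, 1.54 to 1.70) and 26.6 against 29.1 FPKM (1.09-fold lower, 1.03 to 1.16). Rph3a was under the floor of 1 FPKM in both libraries and listed at 0 in the one labelled KO. Of 39 expressed effectors of the Golgi, endosomes and lysosomes, the Rab1 tether Uso1 was at 40.5 against 91.4 FPKM, 2.26-fold lower (2.15 to 2.36), beside the 2.05-fold lower Rab1a. The Rab5 effector Appl2 was at 29.4 against 11.6 FPKM, 2.54-fold higher (2.40 to 2.68), while Rab5a was 3.46-fold lower. Whether a Rab and its effector differed together was not tested. With the trend removed Uso1 was at -0.91 and Appl2 at 1.33. The median of this list was -0.086.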

How the data were processed

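RNA of 1 islet library per genotype was compared. The deposited table holds the authors' FPKM values, taken as they are. Per the submitters' processing notes the genome build was GRCm38 (mm10). Aligner, counter, annotation and strand setting: not given in the sources used here. Each gene's pair of values was searched for whole reads over whole gene lengths from 60 to 30000 nucleotides and 1 total per library. This gave 17178 of 17245 genes (99.6%) whole within 1e-05 of a read plus rounding of the printed value, against 1.7% of 1000 shuffled pairs, and 58 of 59 Rab genes. The smallest such reads, of which the true reads are a whole multiple (1 or more), gave exact Clopper-Pearson 95% intervals of FPKM ratios, so an interval can be too wide. Unmarked PCR copies can make it too narrow. No count test was run, because the unit is FPKM without replicates.

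The difference of a gene is log2((KO + 1)/(WT + 1)), pseudocount 1 FPKM. It was taken where either library reached 1 FPKM and called at 2-fold. The scripts were tested on simulated data. The longest coding GENCODE M21 transcript gave GC content and length for 98.2% of expressed genes (lowess fraction 0.3, 3 iterations). Coordinates and promoters are RefSeq GRCm38.p6, with promoters for 48 of 59 Rab genes. Rab members, roles, lists and motifs were chosen with earlier results of these data known. Named were all Rab genes, and per list those past 2-fold (at most 6) or the 2 widest; others are marked, and a few genes these rules take are not reported here. Alternatives changed the pseudocount (0.1 or 5 FPKM), the floor (none, or 5 FPKM), the scaling (3 kinds), the limit (1.5-fold), or removed the GC and length trend. Python 3.11.15, statsmodels 0.14.6 and scipy 1.17.1 were used.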

Additional observations from a re-analysis of the deposited data

How the results depend on the processing

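With 1 library per genotype no replicate could be left out. No paired analysis was possible because each genotype has 1 library and the labels give no replicate numbers. With 6 Rab genes lower, 1 higher and a median difference of -0.16 as reported, the median stayed below 0 under the 8 alternatives that give one, from -0.10 to -0.29. It was -0.29 with each library scaled to a sum of 1000000, -0.28 with equal sums without the 20 highest genes and -0.29 with the GC content and length trend removed. The scaling to equal sums moved the median of all genes from 0.077 to -0.049, so the Rab median lay -0.24 from that of all genes, against -0.23 as reported. Higher calls numbered 3 with a pseudocount of 0.1 FPKM (Rab24, Rab13 and Rab17, where 12.5% of all genes were called higher), 0 with the trend removed and 6 at 1.5-fold. Lower calls numbered 3 with a pseudocount of 5 FPKM (Rab18, Rab39b and Rab5a, where 1.46% of all genes were called lower) and 14 at 1.5-fold. Rab5a and Rab39b were called lower under all 9 alternatives. For Rab20, Rab26, Rab27b and Rab32, with at least 38, 35, 22 and 15 reads in the library labelled KO, the counting interval held both no difference and a 1.5-fold one.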
